A study of Mus musculus with 2 samples.

Results

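To ask where DLX2 sat near the genes that separate upper from lower jaw, CUT&Tag peaks were collected within 100 kb of 10 genes, which are *Edn1*, *Ednra*, *Mef2c*, *Hand1*, *Hand2*, *Gsc* and *Barx1* of the lower-jaw side and *Nr2f1*, *Nr2f2* and *Pou3f3* of the upper-jaw side. The window of each gene was its RefSeq extent in mm10 with 100 kb added at both ends, and the rule used gene positions only. The windows held 34 of the 28061 peaks of replicate 1 and 62 of the 62093 peaks of replicate 2. They held 15 of the 10921 shared regions, a shared region being a segment covered by a peak of each replicate. Both deposited lists are longer than those the study describes. A share of 89.8% of replicate 1 and 88.9% of replicate 2 peaks had a −log10 q under 5, so the counts include many weak peaks.

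CUT&Tag finds the sites of a protein by tethering a transposase to the antibody bound there, which marks the DNA alongside for sequencing. Both libraries were made with the same anti-DLX2 antibody from maxillary process cells of wildtype C57BL/6 embryos at E12.5, and they form 1 group of 2 replicates. The maxillary process builds most of the upper jaw, so the lower jaw itself was not sampled. Whether each library came from 1 embryo or from several pooled ones is not given in the sources used here, and no control library was used. On library making the sources differ, since the labels speak of sonicated nuclei and histone-DNA complexes, and the study's methods of CUT&Tag with an in situ library kit.

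Endothelin 1, the peptide encoded by *Edn1*, is released in the lower part of the first pharyngeal arch and acts on neural crest cells through the endothelin A receptor, encoded by *Ednra*. The signal runs through Gq and G11 proteins and turns on *Dlx5*, *Dlx6* and *Hand2*, which give the lower jaw its identity. In mice without the signal, structures of the lower jaw take on an upper-jaw shape. DLX2 is present in the mesenchyme of both jaws, and *Nr2f1*, *Nr2f2* and *Pou3f3* are expressed in maxillary mesenchyme, where the endothelin signal is low.

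Shared regions were found in the windows of 6 of the 10 genes. Of 20560 autosomal protein-coding genes, 63.2% had a shared region within 100 kb, so the share among the jaw genes was close to that of coding genes in general. A replicate 1 peak was present for 8 of the 10 genes, against 86.3% of coding genes, and a replicate 2 peak for 9 of the 10, against 93.7%. *Ednra* and *Gsc* had 4 shared regions each, *Barx1* had 3, *Nr2f2* had 2, and *Edn1* and *Pou3f3* had 1 each. At least 4 shared regions were found for 9.95% of coding genes. The other four genes, *Hand1*, *Hand2*, *Mef2c* and *Nr2f1*, had 0 shared regions. The median over the 10 genes was 1 shared region, the same as the median over coding genes.

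**Figure D1:**
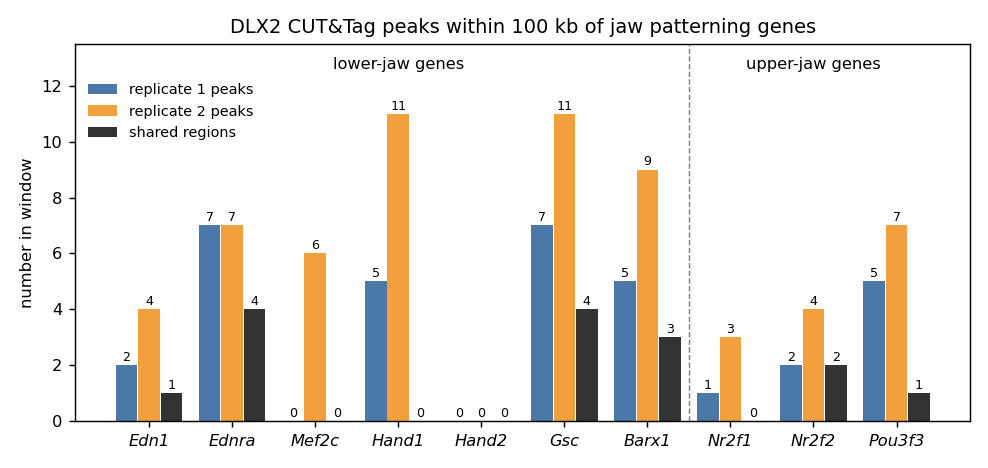
Number of replicate 1 peaks, replicate 2 peaks and shared regions (vertical axis) in the window of each gene (horizontal axis), with lower-jaw genes left of the dashed line. *Hand1* and *Gsc* both had 11 replicate 2 peaks, but *Hand1* had 0 shared regions and *Gsc* had 4.

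The peaks rested on few fragments, which sets how firmly an absent peak can be read. The number of fragments under each summit was inferred from the deposited fold and p of the peak. The fewest fragments behind any listed peak were 4 in replicate 1 and 6 in replicate 2, and the medians were 6 and 9. The fold of a peak is its fragments plus 1 over the local background plus 1. No peak had a local background under 0.387 fragments in replicate 1 or under 1.10 in replicate 2, and these floors set the lowest number of fragments that could be listed. A window without a peak held nothing that passed the cutoff of the peak list, which is not the same as holding no site. The reads in such windows were not examined.

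*Edn1*, which encodes the ligand and lies on chromosome 13 at 42301476 to 42307990, had 2 peaks in replicate 1 and 4 in replicate 2. The replicates met at 1 region, on chromosome 13 at 42232183 to 42232540, 68.9 kb upstream of the gene. The region had a fold of 4.82 in replicate 1, on 6 fragments, and of 7.14 in replicate 2, on 15 fragments. Its nearest protein-coding gene was *Hivep1*, a zinc finger gene 47.2 kb away, rather than *Edn1*. The other peaks of the *Edn1* window lay in 1 replicate each, with folds of 3.33 to 5.24.

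*Ednra*, which encodes the receptor and spans 61.4 kb of chromosome 8 from 77663029 to 77724452, was the only one of the 10 genes with a shared region inside its extent. Among coding genes, 15.4% had one there. The strongest of its 4 regions lay within *Ednra* on chromosome 8 at 77670729 to 77670876, where replicate 1 had a fold of 8.50 on 13 fragments and replicate 2 a fold of 10.4 on 26 fragments. Of all 10921 shared regions, 1.83% had a fold at least this high in the replicate where the fold is lower. The long noncoding RNA gene *LOC105243223* overlaps *Ednra* at this position. The other region inside *Ednra*, at 77688267 to 77688390, had folds of 4.91 and 4.83 in replicates 1 and 2, and its summits lay 209 bp apart. Upstream of *Ednra*, a region at 77744585 to 77744820 lay 20.1 kb from the gene, inside the long noncoding RNA gene *LOC108167319*, with folds of 6.18 and 7.59. The region farthest upstream, at 77772358 to 77772484, lay 47.9 kb from *Ednra* with folds of 5.05 and 5.33. For all 4 regions *Ednra* was the nearest protein-coding gene. The replicates thus listed 7 peaks each in this window and met at 4 of them.

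**Figure D2:**
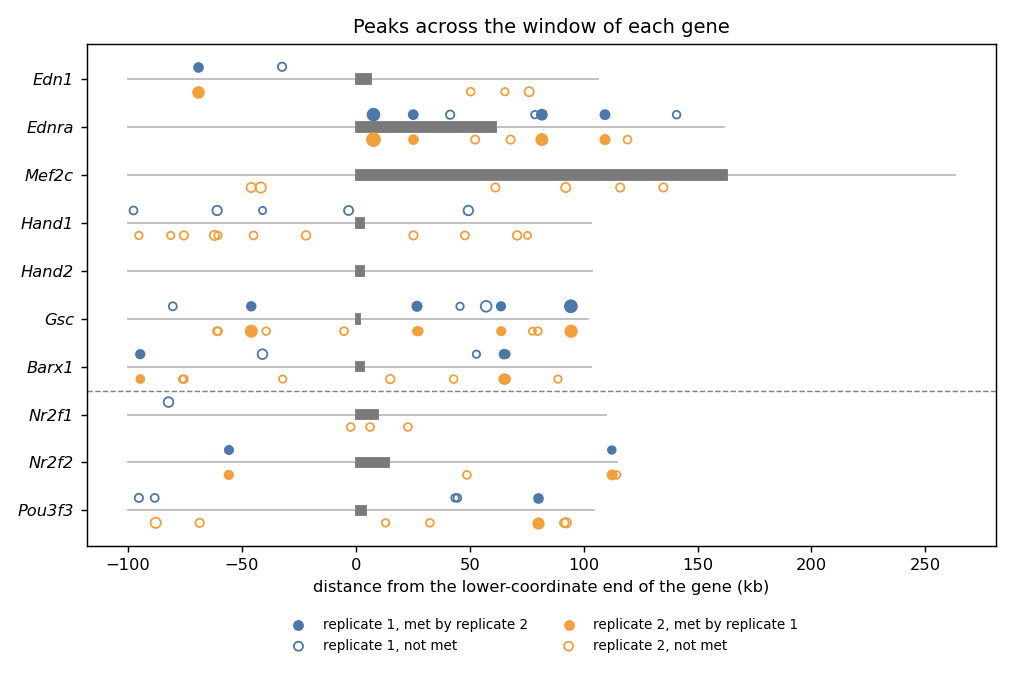
Peaks in the window of each gene, placed by distance in kb from the lower-coordinate end of the gene (horizontal axis, genome orientation), with 1 row per gene and the gene extent as a grey bar. Replicate 1 is drawn above the line and replicate 2 below it, filled circles are peaks met by the other replicate, open circles are not, and the area of a circle is proportional to its fold. Filled circles inside a gene extent occur in the *Ednra* row only.

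*Gsc*, a homeobox gene expressed in the arch mesenchyme (chromosome 12, 104471209 to 104473236), had 7 peaks in replicate 1 and 11 in replicate 2. Its strongest region lay on chromosome 12 at 104565368 to 104565884, 92.1 kb upstream, where replicate 1 had a fold of 8.80 on 17 fragments and replicate 2 a fold of 7.99 on 25 fragments. Of all shared regions, 2.77% had a lower fold at or above that of this region. A second region upstream, at 104498026 to 104498126, lay 24.8 kb from *Gsc* within the long noncoding RNA gene *Gm10000*, with folds of 5.26 and 4.10. A further upstream region, at 104534935 to 104535011 and 61.7 kb away, had folds of 4.34 and 4.24. Downstream, a region at 104425275 to 104425442 had folds of 4.54 and 7.68, and lay 45.8 kb from *Gsc* but 10.9 kb from the serine protease inhibitor gene *Serpina3n*. A replicate 1 peak at 104528333 to 104528524 had a fold of 7.09 on 10 fragments and was not met by replicate 2. In replicate 1 this unmet peak was stronger than 3 of the 4 peaks that replicate 2 met.

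*Barx1*, a homeobox gene of molar mesenchyme that is expressed in parts of both jaws (chromosome 13, 48663036 to 48666507), had 5 peaks in replicate 1 and 9 in replicate 2. A pair of shared regions lay close together downstream on chromosome 13, within the long noncoding RNA gene *Gm36784*. The first, at 48728043 to 48728146 and 61.5 kb from *Barx1*, had folds of 4.62 and 5.59 in replicates 1 and 2. The second, at 48728761 to 48728875 and 62.3 kb away, had folds of 3.93 and 4.94. The remaining region, at 48568389 to 48568488, lay 94.5 kb upstream of *Barx1* with folds of 4.38 and 3.81, and 9.38 kb from the phosphatase gene *Ptpdc1*.

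The remaining lower-jaw genes encode transcription factors that act downstream of the receptor. *Hand1*, a basic helix-loop-helix gene of the distal arch (chromosome 11, 57828713 to 57832147), had 5 peaks in replicate 1 and 11 in replicate 2, and 0 of them met. Among the 7566 coding genes with at least 5 replicate 1 peaks within 100 kb, a comparison chosen after the values of *Hand1* were seen, 8.08% had 0 shared regions. The folds in the *Hand1* window ran from 3.20 to 5.59 for replicate 1, and replicate 2 spanned 3.08 to 5.38. The closest the replicates came was 232 bp, between a replicate 1 peak of fold 5.45 and a replicate 2 peak of fold 3.53, both inside the neighbouring gene *Galnt10*. The peak closest to *Hand1* itself, 3.10 kb away, was listed in replicate 1 with a fold of 5.05 on 6 fragments. The nearest shared region lay 265 kb from the gene, a distance reached or passed by 16.3% of coding genes.

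*Hand2*, the paralog of *Hand1* and a main effector of endothelin signalling in the lower jaw (chromosome 8, 57320983 to 57324517), had 0 peaks in either replicate. Among coding genes, 5.16% had no peak of either replicate within 100 kb. The nearest shared region, at 57191548 to 57191742 on chromosome 8, lay 129 kb from *Hand2*, with folds of 6.49 and 5.71. Of coding genes, 30.8% lay at least this far from a shared region. *Mef2c*, a MADS-box gene that takes part in the same pathway (chromosome 13, 83504017 to 83667079), had 0 peaks in replicate 1 and 6 in replicate 2. Of the replicate 2 peaks, 4 lay inside *Mef2c* and the other 2 lay 41.6 and 45.8 kb from it. The strongest was the one 41.6 kb away, with a fold of 6.66 on 13 fragments, and the others rested on 8 to 10. The nearest shared region was 655 kb from *Mef2c*.

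On the upper-jaw side, *Nr2f1* and *Nr2f2* are paralogs that encode the orphan nuclear receptors COUP-TFI and COUP-TFII. *Nr2f1* (chromosome 13, 78188971 to 78198873) had 1 peak in replicate 1 and 3 in replicate 2, and 0 shared regions. The replicate 1 peak lay 82.1 kb away inside *Fam172a*, with a fold of 5.77 on 7 fragments. Each of the 3 replicate 2 peaks had a fold of 3.81 on 7 fragments, and 1 of them lay inside *Nr2f1*. The nearest shared region was 649 kb from *Nr2f1*, a distance reached or passed by 6.01% of coding genes, whose median distance was 57.0 kb.

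*Nr2f2* (chromosome 7, 70351946 to 70366746) had 2 peaks in replicate 1, both of which replicate 2 met, and 4 in replicate 2. The first shared region lay on chromosome 7 at 70296226 to 70296338, 55.6 kb downstream and inside the long noncoding RNA gene *Gm29683*, with folds of 4.16 and 4.37. The second lay 97.6 kb upstream at 70464328 to 70464423, with folds of 3.58 and 5.22. On 4 fragments in replicate 1, the second region was the weakest of the 15, and 88.6% of all shared regions had a lower fold at least as high.

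*Pou3f3*, a POU homeobox gene needed for upper-jaw bones (chromosome 1, 42695768 to 42700210), had 5 peaks in replicate 1 and 7 in replicate 2. They met at 1 region on chromosome 1 at 42775602 to 42775927, 75.4 kb downstream of the gene, with folds of 4.82 and 6.66 on 6 and 13 fragments. Its distances to *Mrps9*, a mitochondrial ribosomal protein gene, and to *Pou3f3* were almost equal, at 75.3 and 75.4 kb. Another pair of peaks came within 205 bp of each other without meeting, at folds of 3.84 (replicate 1) and 6.50 (replicate 2).

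The lower-jaw and upper-jaw genes were then set side by side per Mb of window, because their windows summed to 1.64 and 0.629 Mb. Replicate 1 listed 26 peaks in the lower-jaw windows (15.8 per Mb) and replicate 2 listed 48 (29.2 per Mb), a mean density of 22.5 ± 9.47 (SD, n = 2). In the upper-jaw windows replicate 1 listed 8 (12.7 per Mb) and replicate 2 listed 14 (22.3 per Mb), a mean density of 17.5 ± 6.74 (SD, n = 2). Since the replicates differ in list length, the sides were compared within each library. There the upper-jaw density was 0.804 times the lower-jaw density in replicate 1 and 0.762 times in replicate 2. The mean was 0.783 ± 0.0296 (SD, n = 2). Both libraries were read over the same windows, so this SD does not cover the spread between genes or the counting error. In replicate 1 the density ran from 0 to 34.6 per Mb over the lower-jaw genes. Over the upper-jaw genes it ran from 4.76 to 24.5 per Mb. All autosomal coding windows together held 15.5 peaks per Mb in replicate 1 and 36.7 in replicate 2, so in replicate 2 both sides lay below the coding windows. The coding windows were not merged where they overlap, so a stretch with many coding genes was counted for each of them. The part of this in the difference was not tested. Shared regions numbered 12 in the lower-jaw windows, or 7.30 per Mb (exact Poisson 95% interval 3.77 to 12.8), and 3 in the upper-jaw windows, or 4.77 per Mb (interval 0.983 to 13.9). The intervals overlapped widely, and both contained the 5.70 shared regions per Mb of all autosomal coding windows, many of which overlap one another. They cover counting error only. Genes are not replicates, so the sides were compared without a test.

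**Figure D3:**
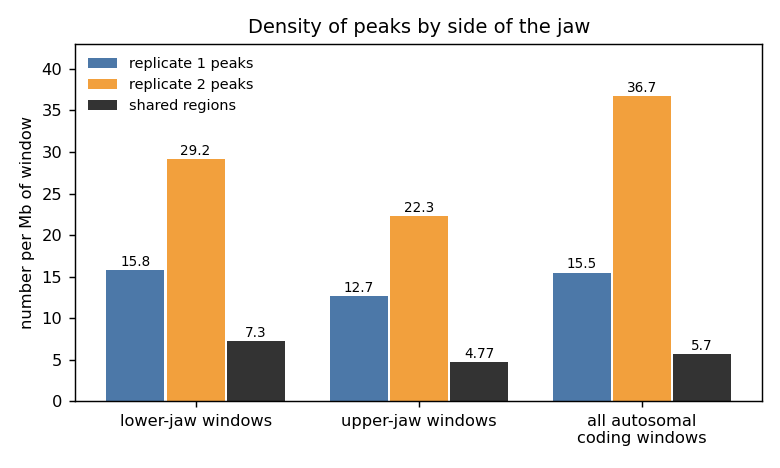
Replicate 1 peaks, replicate 2 peaks and shared regions per Mb of window (vertical axis) for the lower-jaw genes, the upper-jaw genes and all autosomal protein-coding genes. Shared regions stood at 7.30, 4.77 and 5.70 per Mb, and each bar is a single value without an error bar.

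The strength of the shared regions was set side by side as well, on 12 and 3 regions. The median fold of the lower-jaw regions was 4.87 in replicate 1 and 5.46 in replicate 2, and that of the upper-jaw regions was 4.16 and 5.22. With a fold of at least 5 required in both replicates, 4 lower-jaw regions and 0 upper-jaw regions were left, 3 of them at *Ednra* and 1 at *Gsc*. Of all shared regions, 35.1% had such folds, so 4 of 12 was close to the general share. With a −log10 q of at least 5 in both, 1 region was left at *Ednra* and 1 at *Gsc*, against 15.6% of all shared regions. *Ednra*, *Gsc* and *Barx1* held 11 of the 12 lower-jaw regions.

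Over all 15 regions, the median fold was 4.82 in replicate 1 and 5.33 in replicate 2. The medians over all shared regions of the genome were 5.05 and 5.12. The fold was higher in replicate 2 for 10 of the 15, and the summits lay within 150 bp of each other for 12. Peaks met by the other replicate had 4 to 17 fragments in replicate 1 and 9 to 26 in replicate 2. Of the replicate 1 peaks in the 10 windows, 44.1% were met by replicate 2 (95% Wilson interval 28.9 to 60.5%), against 38.9% of all replicate 1 peaks. Of the replicate 2 peaks, 24.2% were met (interval 15.2 to 36.2%), against 17.2% of all. Both intervals contained the value for the whole list. They treat peaks as independent, which peaks of the same window may not be, so they may be too narrow. Peaks are not replicates, so this is a description and not a test.

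**Figure D4:**
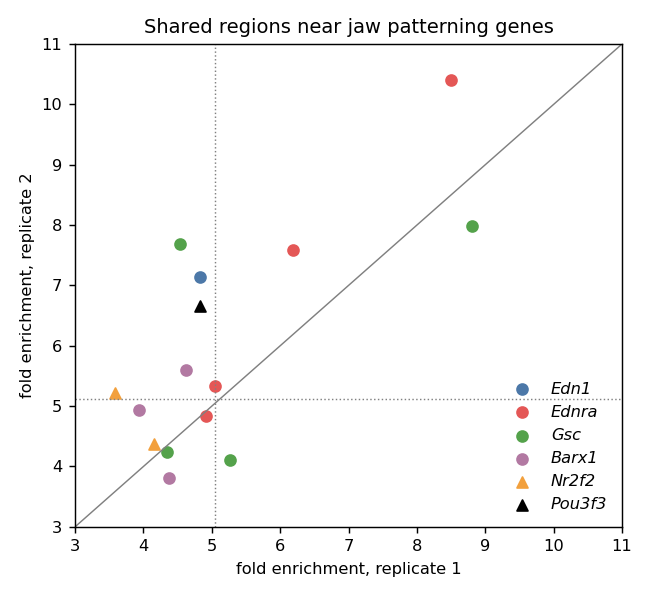
Fold enrichment of the 15 shared regions in replicate 1 (horizontal axis) and replicate 2 (vertical axis), with circles for lower-jaw and triangles for upper-jaw genes, the line of equal fold, and dotted lines at the medians of all shared regions. One region of *Ednra* (8.50 and 10.4) and 1 of *Gsc* (8.80 and 7.99) stand apart from the rest.

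The distances from the shared regions to the genes were read against those of all autosomal coding genes, since the width of the window limits them. The median distance was 61.5 kb for the 15 regions and 39.3 kb over all 29146 pairs of a coding gene and a shared region in its window. A region inside a gene has a distance of 0, so gene length enters these distances, and its part was not tested. More than 50 kb away lay 9 of the 15 regions and 40.9% of those pairs. By the strand of the gene, 8 were upstream, 5 downstream and 2 inside. Of the 15, 8 lay in no annotated gene (53.3%, against 43.9% of all autosomal shared regions), and 5 lay in long noncoding RNA genes only (33.3%, against 8.76%). The close pair of regions in *Gm36784* near *Barx1* makes up 2 of these 5. The jaw gene was the nearest protein-coding gene for 10 of the 15 (66.7%), against 31.5% of the pairs. The pairs count a region once for each coding gene around it, so their share is lower where coding genes are dense. The jaw gene windows held 7.92 coding genes per Mb. No such density is given here for all coding windows, and the part of gene density was not tested. With 15 regions around 6 genes, these shares are a description without a test.

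The local background differed between the windows, and was highest in replicate 2 for the 3 genes with the most replicate 2 peaks, which had 11, 11 and 9. In replicates 1 and 2 its median was 0.543 and 1.63 fragments for *Hand1*, 0.611 and 1.60 for *Gsc*, and 0.525 and 1.64 for *Barx1*. For *Nr2f1* it was at the floor of each library, 0.387 and 1.10, and the median of replicate 2 was at its floor for *Edn1* and *Mef2c* too. Over all peaks the medians were 0.484 and 1.29. The part of the background in the numbers of peaks was not tested.

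None of the promoters of the jaw genes was met by a peak. RefSeq promoters, 250 bases before to 50 after a start site in GRCm38.p6, were given for 9 of the 10 genes (12 promoters, none for *Hand1*), and 0 of the 9 genes had a promoter with a peak of either replicate. Among 16457 coding genes with such a promoter, 4.11% had one. The summit nearest to any of these start sites was a replicate 2 summit 1.16 kb from the inner start site of *Nr2f1*. For the other 8 genes the nearest summit was 6.58 kb away or more.

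DLX proteins bind DNA through a homeodomain, whose classical core site is TAATTA, a palindrome that reads alike on both strands. The core was found in 2 of the 12 promoters, those of *Hand2* and of a start site inside *Mef2c*, and in 5.29% of all 32851 promoters. It began 175 bases before the start site in *Hand2* and 102 before it in *Mef2c*. None of the 12 promoters had a peak, and these 2 are shown, with the core in capitals, because they hold it. The inner promoter of *Nr2f1* is shown beside them because it lay closest to a peak, 1.04 kb from it, and holds no TAATTA. The choice of these 3 was made after the values were seen.
Hand2, chr8:57320733-57321032, plus strand: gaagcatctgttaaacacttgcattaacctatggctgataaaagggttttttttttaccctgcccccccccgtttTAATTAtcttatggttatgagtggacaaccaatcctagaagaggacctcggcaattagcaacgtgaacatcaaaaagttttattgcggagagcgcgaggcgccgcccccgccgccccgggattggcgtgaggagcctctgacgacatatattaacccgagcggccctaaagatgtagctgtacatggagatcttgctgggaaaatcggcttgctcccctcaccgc
Mef2c, chr13:83523406-83523705, plus strand: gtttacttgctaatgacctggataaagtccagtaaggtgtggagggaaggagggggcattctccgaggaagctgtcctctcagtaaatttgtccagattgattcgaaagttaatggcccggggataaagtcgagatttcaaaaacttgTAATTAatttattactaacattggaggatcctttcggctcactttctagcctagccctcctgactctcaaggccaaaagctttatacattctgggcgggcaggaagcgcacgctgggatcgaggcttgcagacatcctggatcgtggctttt
Nr2f1, chr13:78196400-78196699, minus strand: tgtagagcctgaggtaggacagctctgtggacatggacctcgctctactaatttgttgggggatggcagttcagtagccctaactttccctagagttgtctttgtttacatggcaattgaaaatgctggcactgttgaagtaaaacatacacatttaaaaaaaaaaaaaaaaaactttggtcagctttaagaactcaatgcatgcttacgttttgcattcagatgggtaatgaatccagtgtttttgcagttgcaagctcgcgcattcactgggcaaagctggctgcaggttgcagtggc
Distances from these promoters to the nearest peak were 126 kb in replicate 1 and 124 kb in replicate 2 for *Hand2*, and 249 and 41.5 kb for *Mef2c*. A match of these letters is a description of the sequence and not a binding site.

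Other genes of the pathway were counted in the same way. Of 14 such genes, 10 had a shared region within 100 kb, or 71.4%, against 63.2% of coding genes, and 0 had one inside the gene. *Ece1*, whose product cuts the endothelin precursor into its active form, had 3 shared regions, and *Furin*, which makes the earlier cut, had 2. Of the other ligands, *Edn2* had 3 and *Edn3* had 2. *Ednrb*, the other endothelin receptor, had 0, with 2 peaks in replicate 1 and 5 in replicate 2, whereas *Ednra* had 4 shared regions. Among the genes that carry the signal inside the cell, *Gnaq* had 3, *Gna11* had 2 and *Plcb3* had 0. Of the patterning genes, *Dlx3* had 3 and *Gbx2* had 1, while *Nkx3-2* and *Jag1* had 0. *Dlx5* and *Dlx6* lie side by side and counted the same region, on chromosome 6 at 6800324 to 6800769, 62.6 kb from *Dlx6* and 77.0 kb from *Dlx5*. It had folds of 8.79 and 11.4, above every region near the 10 jaw genes in replicate 2.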

How the data were processed

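Each replicate has its own deposited peak list in narrowPeak layout (mm10). Per the labels, Trim Galore 0.4.5, Bowtie 1.1.2 and MACS2 2.2.7 were used. The methods of the study name bowtie2 and another Trim Galore version, and the settings of the peak caller are not given in the sources used here. The deposited fold is a ratio of summit height to the background around it, the deposited −log10 p and −log10 q are those of the peak caller, and the deposited score, 10 times −log10 q, was not used further. Both lists end at a −log10 q of 1.00.

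Shared regions needed 1 bp of overlap. Gene extents, without those listed before position 3000000, came from RefSeq GRCm38.p6, which is mm10. A whole number of fragments was recovered for 100% of peaks within 0.001 of the deposited −log10 p. The overlap, window and fragment steps were tested on simulated data. Python 3.11.15, pandas 2.3.3, numpy 2.4.6, scipy 1.17.1 and matplotlib 3.10.9 were used. The genes, the pathway list and the rule to name all 10 genes and each shared region were chosen with earlier results of these data known, and 1 gene of the pathway list is not reported here. With 2 replicates of 1 group there was no test. Alternatives changed the window, the peak threshold, the overlap, the replicates and the gene assignment. No genome sequence was used, so the sequence of the regions was not analysed here.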

Additional observations from a re-analysis of the deposited data

How the results depend on the processing

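Of 45 alternative values, 12 stayed near the value given and 33 moved. Near meant within 1.5 times the value for counts, and within 1 SD of the replicates for the ratio of the sides. The value given for that ratio was 0.653, the upper-jaw over the lower-jaw density of shared regions. The SD, 0.0296, came from the peak ratios of the replicates and not from shared regions, and it does not cover counting error. Each alternative ratio moved, but with so narrow an SD of another measure this label says little about the ratio. No ratio reversed, and counts have no direction, so they could not reverse. With 50 kb windows there were 6 shared regions at 2 genes, 6 on the lower-jaw side and 0 on the upper, a density ratio of upper to lower of 0. With 200 kb windows there were 26, 19 and 7, a ratio of 0.912. A −log10 q of at least 5 left 2 regions at 2 genes (2 and 0, ratio 0), and a fold of at least 5 left 4 at 2 genes (4 and 0, ratio 0). The share of all coding genes with a region under these settings is not given here. The numbers of genes can therefore not be read against it. Over coding genes, the median distance to the nearest shared region was 57.0 kb, beyond the 50 kb windows. Requiring 50% of each peak left 1 upper-jaw region (ratio 0.290), pairing summits within 150 bp left 1 (ratio 0.237), and counting only regions whose nearest protein-coding gene was the jaw gene left 1 (ratio 0.290). The peaks of 1 replicate alone numbered 34 to 62 in all, 26 to 48 on the lower-jaw side and 8 to 14 on the upper-jaw side, with a ratio of 0.762 to 0.804. Fewer regions follow from stricter rules by construction. The cause of the change in the ratio was not tested. With 3 upper-jaw regions, the loss of 2 of them sets the ratio, so no contrast of the sides rests on firm counts. No control library was used, so every fold is relative to the background of its own library.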

Other observations

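Just beyond the windows, from 100 to 200 kb, 11 more shared regions were listed, 7 near lower-jaw and 4 near upper-jaw genes. These are counts around 7 and 3 genes and not densities, so they do not show more regions on the lower-jaw side. With them included, as in the 200 kb windows, the upper-jaw over the lower-jaw density was 0.912, against 0.653 in the 100 kb windows. *Nr2f2*, which encodes COUP-TFII, had 3 of them, at 101, 105 and 190 kb, and the last had folds of 5.46 and 9.44 in replicates 1 and 2. *Hand2* had 2, at 129 and 183 kb, with folds of 6.49 and 5.71 for the first and of 5.73 and 5.27 for the second. *Gsc* had 2, at 147 and 173 kb, the first with folds of 7.19 and 8.90. *Barx1* had 2, and *Edn1* and *Pou3f3* had 1 each. *Ednra*, *Hand1*, *Mef2c* and *Nr2f1* had none in this range.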
